A study of Mus musculus with 8 samples.

Results

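The 5938 genomic sites described here were selected on peak calls for the transcription factor PU.1: each was called after 4, 8 and 12 days of doxycycline (Dox) and again in the library titled knockdown Day 12- 12, and was called in none of the untreated library, the library titled Day 12- 4 and the library titled Day 12- 8. They were chosen by these calls out of 246675 sites, obtained by joining the summits of all 7 deposited peak lists wherever neighbours lay within 100 bp. Of the 15336 sites called on all 3 restoration days and not in untreated cells, termed restored sites below, the selected sites made up 38.7%. A Day 12- 12 call of any kind was held by 10335 restored sites, or 67.4%. Because the calls define the members, these counts are a description and nothing is read from them. Every member held 4 summits, 1 from each list that called it.

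PU.1-bound DNA was immunoprecipitated and sequenced (ChIP-seq) from AML246, a mouse acute myeloid leukaemia culture grown with IL-3, in which 0.1 ug/mL Dox was given from day 0 and taken away on day 12 of a 24 day course. The restoration libraries came from untreated cells (Day 0) and from cells with 4, 8 or 12 days of Dox, all sorted as total viable cells. The 3 remaining libraries carried titles that differ from their treatment labels and are called by their titles. Day 12- 4 carries the treatment label of 12 days of Dox and was the only library sorted for viable cells high in Cd11b. Day 12- 8 carries the label of 4 days without Dox and Day 12- 12 that of 8 days without it, both from total viable cells. A further sample, with the label of 12 days without Dox, was not analysed here. The labels name 1 cell line for all libraries and do not describe the Dox construct, so its promoter and clonality are not known here.

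Every time point rests on a single library. Differences between libraries therefore have no replicate check, and none is given a p-value. The lists differed widely in length: Day 0 held 8043 summits, Day 4 57424, Day 8 33962, Day 12 86271, Day 12- 4 9868, Day 12- 8 21377 and Day 12- 12 148415. The list that holds the members again was thus the longest and those that lack them were the 3 shortest. The sources used here do not state sequencing depth, so list length, depth and binding cannot be told apart. A missing call does not show that PU.1 was absent.

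PU.1, the product of Spi1, is an ETS-family transcription factor that binds purine-rich DNA around a GGAA core. In the haematopoietic system it directs progenitors towards macrophages, granulocytes and B cells, and its reduction in progenitors can lead to acute myeloid leukaemia. It binds both promoters and distal elements, often beside other myeloid and lymphoid factors.

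For sequence, only promoters could be read: RefSeq windows of GRCm38.p6, the assembly of mm10, running from 250 bases before to 50 bases after an annotated start. In 374 members the Day 12 summit lay inside such a window. The long PU.1-type motif GAGGAAGT, searched on both strands, was present in 38 of these windows, or 10.2% (exact 95% interval 7.29 to 13.7, counting error only). It was present in 3.20% of all 32817 distinct windows and in 5.90% of the 5902 windows that held any Day 12 summit. The stretches below surround the Day 12 summit, which is base 51 of each, and are shown because they hold the motif or represent the highest-scoring promoters without it. Capitals mark GAGGAAGT or GAGGAA on either strand, so ACTTCCTC is the long motif read from the other strand. All run 5′ to 3′ in the direction of the gene. Prtn3, Chek2, Swsap1 and Ndufb5 followed from the fixed rule for named sites, whereas Narf and Trex1 were chosen after their values were seen.
Prtn3, chr10:79879526-79879626, plus strand: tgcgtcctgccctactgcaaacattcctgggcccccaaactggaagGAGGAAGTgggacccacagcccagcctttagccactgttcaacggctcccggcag
Narf, chr11:121237012-121237112, plus strand: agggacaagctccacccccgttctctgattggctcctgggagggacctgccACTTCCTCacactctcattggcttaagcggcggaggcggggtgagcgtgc
Trex1, chr9:109059226-109059326, minus strand: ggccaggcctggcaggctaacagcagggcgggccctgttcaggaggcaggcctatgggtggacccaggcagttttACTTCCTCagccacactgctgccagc
Swsap1, chr9:21955602-21955702, plus strand: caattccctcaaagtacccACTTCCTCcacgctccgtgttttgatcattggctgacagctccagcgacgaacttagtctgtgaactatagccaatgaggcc
Chek2, chr5:110839899-110839999, plus strand: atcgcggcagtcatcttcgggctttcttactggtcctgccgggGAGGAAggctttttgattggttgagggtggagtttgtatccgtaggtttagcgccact
Ndufb5, chr3:32736869-32736969, plus strand: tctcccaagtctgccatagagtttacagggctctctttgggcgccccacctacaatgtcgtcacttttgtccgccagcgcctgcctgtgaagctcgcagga

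In the Prtn3 promoter the centre of the long motif lay 0.5 bp from the Day 12 summit, which itself lay 91 bp upstream of the start. Prtn3 encodes proteinase 3, a serine protease of neutrophil granules. The motif centre lay 4.5 bp from the summit at Narf, 28.5 bp at Trex1, the gene of a DNA exonuclease, and 27.5 bp at Swsap1, whose site lies 3245 bp from the body of the erythropoietin receptor gene Epor. The Narf site had peak scores (−log10 q) of 45.7 in the Day 4 list, 30.5 in Day 8, 330 in Day 12 and 46.0 in Day 12- 12. With the lists in this order the Trex1 site scored 57.3, 33.7, 290 and 48.5, and the Swsap1 site 57.9, 8.67, 109 and 21.1. At Chek2, the gene of a DNA-damage checkpoint kinase, the shorter GAGGAA lay 4.5 bp from the summit, and the long motif was not in the window. The Ndufb5 promoter, which had the highest Day 12 score of all members, held neither motif in its 300 bases.

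Across the 374 promoter members, 29 of the 39 occurrences of GAGGAAGT lay within 50 bp of the Day 12 summit. This was 0.844 occurrences per kb of sequence near the summit against 0.133 per kb farther away in the same windows. The ratio was 6.35, and it was 5.65 at restored sites called in no knockdown-titled list. It was 8.20 at those called in all 3 and 8.46 at those called in Day 12- 4 and Day 12- 12. Each ratio rests on only 5 to 10 occurrences farther from the summit, so the differences between classes are not interpreted. The shorter GAGGAA, which occurs in 28.3% of all windows and also within the long motif, was in 47.3% of member windows and in 32.7% of windows with any Day 12 summit, with a ratio of 1.85 in members. CCGGAAGT, a motif bound by many other ETS factors, was in 13.9% of member windows (10.6 to 17.8) against 3.89% of all windows, and its ratio was 4.96. The CCGGAAGT ratio was 1.45 at sites in no knockdown-titled list, where only 5 windows held it. It was 2.93 at sites in all 3 and 3.99 at those in Day 12- 4 and Day 12- 12. In windows with any Day 12 summit its share was 10.9% (10.1 to 11.7), which overlapped the member interval.

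Motif content differed between classes of restored sites. The long PU.1-type motif was in 17.0% of 100 promoter sites called in no knockdown-titled list (10.2 to 25.8), in 42 of 221 called in Day 12- 4 and Day 12- 12 (14.1 to 24.8%) and in 7.05% of 525 called in all 3 (5.01 to 9.58). The interval of the member share, 7.29 to 13.7, overlapped those of the first and the last of these classes and ended below that of the second. For CCGGAAGT the order was different, with 5 of 100 windows of sites in no knockdown-titled list, 13.1% of those in Day 12- 4 and Day 12- 12 and 23.4% of those in all 3. The GC box GGGCGG was in 47.9% of member windows, 31.0% of windows of sites in no knockdown-titled list and 68.6% of those in all 3. Median GC content was 56.0% in member windows, 52.3% and 60.3% in those 2 classes, and 52.7% in all windows. Windows with any Day 12 summit had a median GC content of 61.3% and held GGGCGG in 66.2% (65.0 to 67.4). Member windows thus lay below Day 12 windows in both. Sites called in Day 12- 4 and Day 12- 12 had a median GC content of 56.3% and GGGCGG in 106 of 221 windows, close to the member values, while their share with GAGGAAGT was higher than that of members. TGACTCA (AP-1), TTGCNNAA (C/EBP type) and TGTGGT (RUNX type) were in 5.08%, 11.0% and 16.0% of member windows, against 5.20%, 10.8% and 16.8% of all windows. In windows with any Day 12 summit the shares were 3.44%, 8.05% and 13.0%, with intervals that overlapped those of members.

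Scores describe how each list ranked the members. The score is the authors' own value per peak, read as −log10 of the q-value. It is used to describe and rank sites within a list, so scores of a site in different lists, given side by side below, do not measure a change in binding. The median member score was 27.4 in Day 4 (quartiles 13.4 and 53.8), 17.7 in Day 8 (9.91 and 33.1), 44.2 in Day 12 (17.2 and 101) and 13.4 in Day 12- 12 (8.04 and 21.5). Set within its own list, the median member stood at percentile 73.3 in Day 4, 57.4 in Day 8, 85.4 in Day 12 and 89.1 in Day 12- 12. Members were thus mid-ranking in the Day 8 list and among the better-scoring summits of the Day 12 and Day 12- 12 lists. Other restored sites with a Day 12- 12 call scored higher in that list. Their Day 12- 12 median was 17.9 for sites called in Day 12- 8 and Day 12- 12. It was 30.6 for sites called in Day 12- 4 and Day 12- 12, and 51.9 for sites called in all 3 knockdown-titled lists. A score of 20 or more in all 4 lists was reached by 925 members, or 15.6%, and a score of 100 or more in all 4 by 8.

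**Figure D1:**
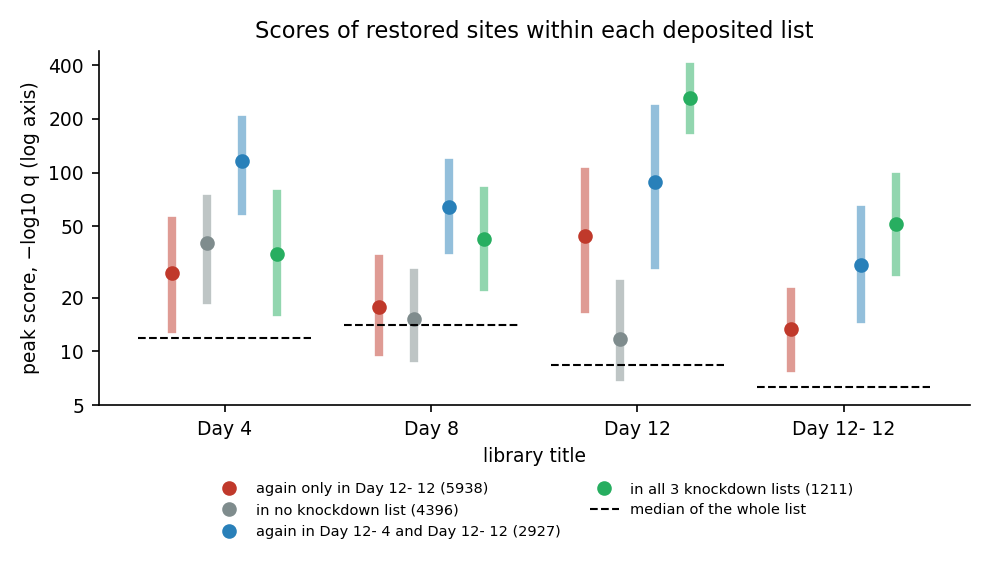
Peak scores (−log10 q, log axis) of restored sites in the 4 lists that call the members, with points for class medians, bars for quartiles and dashed lines for the median of the whole list. The members (red) lie above the dashed line in each list, with medians of 27.4, 17.7, 44.2 and 13.4, and between the sites in no knockdown list and those called in Day 12- 4 as well in the Day 8 and Day 12 lists.

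The members' Day 12 scores lay between those of neighbouring classes. The Day 12 median was 11.6 for restored sites in no knockdown-titled list, 44.2 for members, 88.7 for sites called in Day 12- 4 and Day 12- 12, and 261 for sites called in all 3. In the Day 4 list the order was different: members had the lowest median of these 4 classes, 27.4, against 40.5, 117 and 35.0. Restored sites with a Day 12 score under 10 were members in 27.1% of cases. That share was 35.1% at scores of 10 to 20, 46.7% at 20 to 50, 55.3% at 50 to 100, 47.7% at 100 to 200 and 21.3% above 200, so members were most frequent at intermediate scores. The calls that define the classes come from the same libraries, so these values are a description.

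Among members, scores fell into an early pair and a late pair of lists. Day 4 and Day 8 scores had a Spearman correlation of 0.749 over the 5938 members, and Day 12 and Day 12- 12 scores one of 0.587. Between the pairs it was 0.178 for Day 4 and Day 12, 0.313 for Day 8 and Day 12, 0.122 for Day 4 and Day 12- 12, and 0.273 for Day 8 and Day 12- 12. At restored sites called in all 3 knockdown-titled lists the correlation of Day 4 with Day 12 was 0.875, while at sites called in Day 12- 4 and Day 12- 12 it was 0.153. These are correlations over sites, which share libraries and, within a list, depth, and they carry no p-value.

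Fixed score limits picked out members with opposite patterns of Day 4 and Day 12 scores. The upper quartile of member scores was 53.8 in Day 4 and 101 in Day 12. The same limits are therefore unlike in the 2 lists, and the sizes of the groups are not compared. A Day 12 score of at least 100 with a Day 4 score under 20 was found at 323 members, whose median Day 12- 12 score was 19.8. The reverse, a Day 4 score of at least 100 with a Day 12 score under 20, was found at 102 members, whose median Day 12- 12 score was 7.99. From the lowest bin of Day 12 score (under 10) to the highest (above 200), the median Day 12- 12 score went from 8.04 to 35.6. From the lowest to the highest bin of Day 4 score it was 11.5 and 11.9, and its highest value between them was 14.6, at Day 4 scores of 50 to 100.

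**Figure D2:**
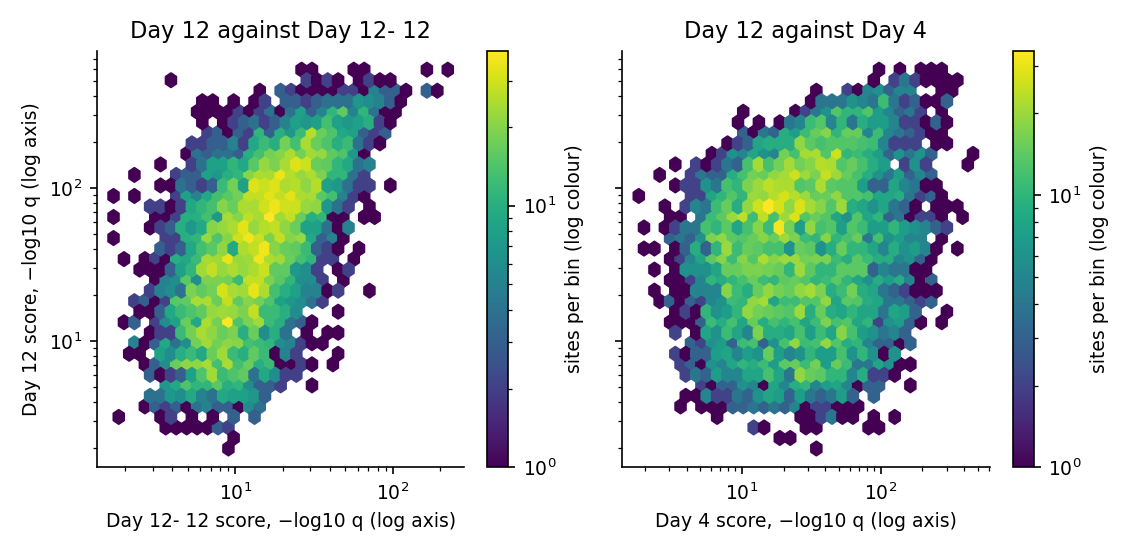
Day 12 score of the 5938 members against their Day 12- 12 score (left) and their Day 4 score (right), all as −log10 q on log axes, with colour for the number of sites per bin. The left cloud rises along the diagonal (Spearman 0.587), whereas the right one is broad (0.178).

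Neighbouring summits of a member lie within 100 bp by the joining rule, so their closeness is a description. The 4 summits spanned a median of 69 bp (quartiles 42 and 102, longest 266), and the Day 12- 12 summit lay a median of 29 bp from the Day 12 summit, nearer than those of Day 4 (34 bp) and Day 8 (33 bp). The span was 75 bp at members with a Day 12 score under 10 and 48 bp at those above 200. At sites called in all 3 knockdown-titled lists the same 4 summits spanned a median of 45 bp.

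The distance to the lists that do not call the members shows how far the selected sites lie from other calls. The nearest Day 0 summit lay a median of 41880 bp away, the nearest Day 12- 4 summit 25246.5 bp and the nearest Day 12- 8 summit 15065 bp. A summit of any of these 3 lists lay beyond the joining limit but within 200 bp at 235 members (3.96%) and within 500 bp at 430 (7.24%). Such neighbours were more frequent at high scores: within 500 bp they were found at 1.25% of members with a Day 12 score under 10 and at 24.5% of those above 200. Of the 12 members with a Day 12- 12 score of 100 to 200, 9 had one.

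**Figure D3:**
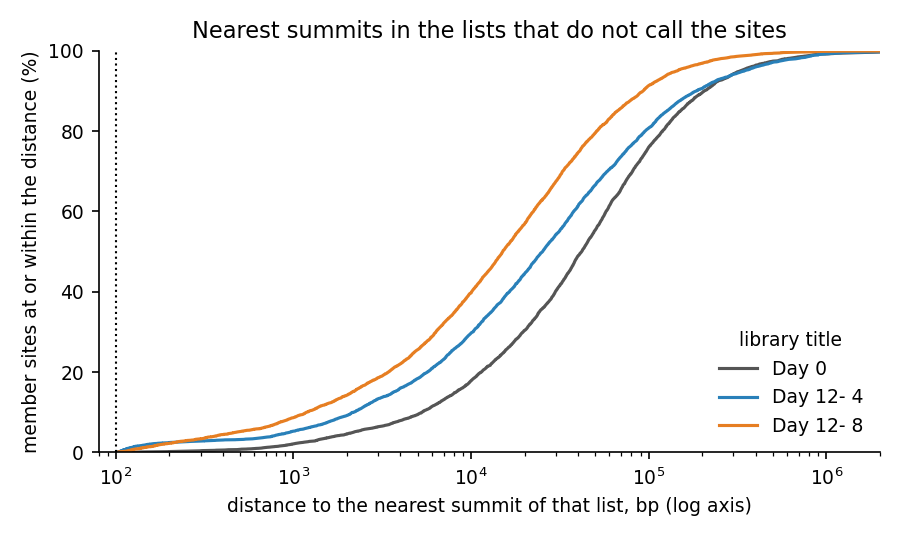
Cumulative share of members (%) by distance in bp (log axis) to the nearest summit of each list that does not call them. The dotted line is the 100 bp joining limit, and 2.46% of members had a Day 12- 4 summit and 2.24% a Day 12- 8 summit within 200 bp.

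Members just inside the limit were those at Galnt4, Dhrs9 and Ulk1, each 101 bp from a Day 12- 4 summit. The Ulk1 site, in the gene of a kinase that starts autophagy, scored 30.7 in Day 4, 33.9 in Day 8, 270 in Day 12 and 27.1 in Day 12- 12. Just outside were sites near Grb2 and in Spring1, which a Day 12- 4 summit joined at 100 bp, and a site in Pold1, which a Day 12- 8 summit joined at 100 bp. The Grb2 site scored 90.3, 77.3, 304 and 96.1 in the same 4 lists and 13.6 in Day 12- 4. In all, 19 sites were joined to a Day 12- 4 summit and 13 to a Day 12- 8 summit at 91 to 100 bp.

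Position relative to genes was not used to select the members. Of 5930 members on placed chromosomes, 931 had their Day 12 summit at most 1 kb from a protein-coding gene's start or end, or 15.7% (14.8 to 16.7), and 60.1% (58.9 to 61.4) lay inside a gene body. The gene-end share was 7.51% (6.75 to 8.33) at restored sites in no knockdown-titled list and 14.9% (13.6 to 16.2) at those called in Day 12- 4 and Day 12- 12. It was 63.0% (60.2 to 65.7) at sites called in all 3 and 64.9% (58.7 to 70.7) at sites called in Day 12- 8 and Day 12- 12. Over all merged sites the gene-end share was 13.3% and the gene-body share 62.9%, and over all restored sites they were 17.5% and 58.3%. The member shares were thus near the background, and the gene-end share was far below that of restored sites with a Day 12- 8 call. These intervals cover counting error only, and sites of 1 library are not replicates.

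The gene-end share of members rose with the Day 12 score. It was 6.29% under 10, 7.39% at 10 to 20, 10.9% at 20 to 50, 16.5% at 50 to 100, 29.4% (26.6 to 32.3) at 100 to 200 and 31.0% (26.8 to 35.5) above 200. At 100 to 200 it was 33.9% (25.1 to 43.6) for sites in no knockdown-titled list, 21.5% (18.1 to 25.2) for those in Day 12- 4 and Day 12- 12, and 68.4% (63.0 to 73.5) for those in all 3. At 50 to 100 it was 16.5% (12.5 to 21.2), 10.8% (8.20 to 13.8) and 60.6% (48.3 to 72.0), and at 20 to 50 it was 7.63% (5.97 to 9.58) and 5.25% (3.55 to 7.46) in the first 2 of these classes. At like scores from 20 to 200 the members thus lay above the sites in Day 12- 4 and Day 12- 12, with intervals that did not overlap. Sites in no knockdown-titled list had 4.94% (4.00 to 6.03) under 10 and 6.41% (5.11 to 7.93) at 10 to 20. Their intervals overlapped those of members in every bin under 200, narrowly at 20 to 50 (members 9.30 to 12.6). The gap to sites called in all 3 was also present at like scores. With the Day 4 score the share did not rise: it was 16.5% (14.1 to 19.1) under 10 and 11.8% (5.79 to 20.6) above 200.

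**Figure D4:**
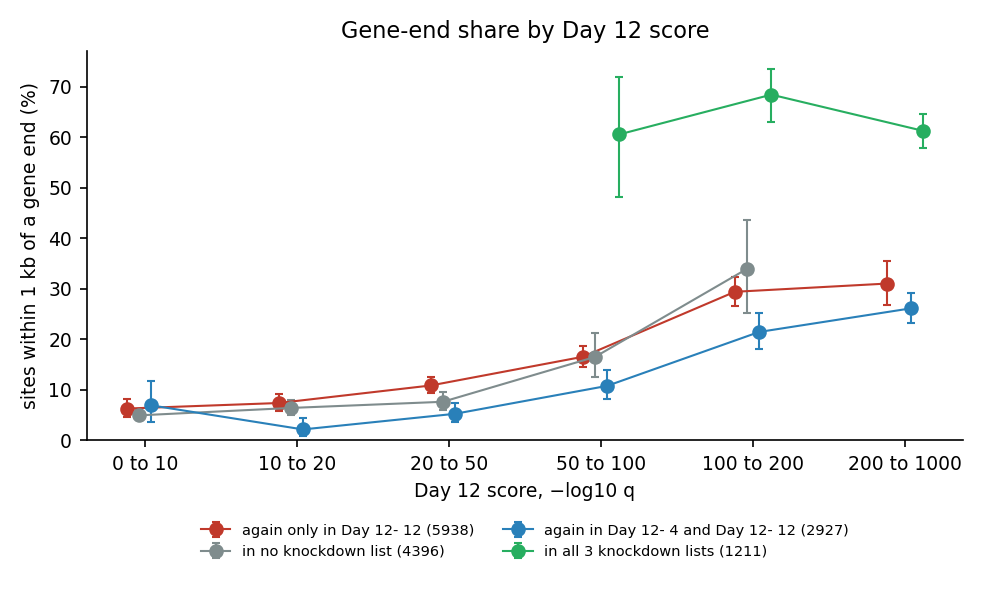
Share of sites within 1 kb of a gene end (%) by Day 12 score (−log10 q) in 4 classes of restored sites, with exact 95% intervals and points only for 20 or more sites. The members (red) climb from 6.29% to 31.0% and stay far below the sites called in all 3 knockdown lists (green, 60.6% to 68.4%).

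The same contrast appeared in scores and in the early and late groups. Members at gene ends had a median Day 12 score of 96.9 against 33.4 for the 2946 members over 10 kb from one, and a Day 12- 12 median of 17.7 against 12.6. Their Day 4 medians were 24.9 and 27.4, and their Day 8 medians 17.0 and 17.7. Of the 323 members with a high Day 12 and a low Day 4 score, 44.0% (38.5 to 49.6) lay at a gene end, whereas of the 102 with the reverse pattern 9.80% (4.80 to 17.3) did. Of the 212 members with scores of at least 100 in both, 14.2% (9.76 to 19.6) did.

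Distances to the annotated starts of RefSeq, which covered 79.9% of protein-coding genes, left out chromosome 18 in all classes and so cover 5756 members. The median member lay 11697 bp from a start, against 16447 bp for sites in no knockdown-titled list and 192.5 bp for sites called in all 3. Over 10 kb from any start lay 54.2% of these members, and 22.5% were also outside gene bodies. These values were near or below those of all merged sites (61.7% and 24.4%, median distance 15693 bp) and near those of all restored sites (54.6% and 23.5%, 12091 bp). Chromosome 11 held most members, 524 or 8.82%, and 8.41% of all merged sites. Chromosome X held 71 members, 1.20%, beside 1.16% of all merged sites. Another member lay within 10 kb at 21.3% of members, and none lay within 500 bp.

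The members with the highest Day 12 scores lay near genes of varied function. The top site lay 138 bp from the body of Ndufb5, a subunit of mitochondrial complex I, and scored 144 in Day 4, 133 in Day 8, 595 in Day 12 and 176 in Day 12- 12. A Day 12- 8 summit lay 134 bp and a Day 12- 4 summit 158 bp from it. Next came a site (chromosome 10, Day 12 summit at 79698088, mm10) 2827 bp from Gzmm, a granzyme of cytotoxic lymphocytes, with 195, 324, 593 and 64.5 in the same order and a Day 12- 4 summit 110 bp away. These sites scored high in each of the 4 lists that call them, and their neighbouring summits show that they lie close to the joining limit. The site on chromosome 9 at 44234981, 722 bp from Cbl, a ubiquitin ligase that curbs cytokine receptor signalling, had no such neighbour and scored 274, 112, 579 and 29.2. Its nearest summit in another list was 1294 bp away.

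The Cap1 site on chromosome 4 at 122886512, 436 bp upstream of the start of a regulator of actin turnover, had the highest Day 12- 12 score of all members. It scored 223 in Day 4, 206 in Day 8, 573 in Day 12 and 223 in Day 12- 12, with the nearest other-list summit 621 bp away. A site in the body of Itpkb, a kinase of inositol phosphate signalling, scored 203, 210, 528 and 77.9 and lay 29714 bp from the nearest such summit. A site 18734 bp from Foxn2, a forkhead factor gene, was among the highest in Day 12 at 535 and scored 253 in Day 4 and 99.3 in Day 8, but only 4.21 in Day 12- 12. Tnfrsf13b, a receptor of B cells, had a site 9862 bp away with 88.9, 65.0, 561 and 27.8, and Runx3, a transcription factor of lymphoid and myeloid cells, one at 61503 bp with 102, 123, 554 and 56.7.

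Other members high in the Day 12- 12 list were at Chd9, Cdc42ep4, Chek2, Ankfy1, Sec11a and Dhrs9, with Day 12- 12 scores of 181, 169, 161, 156, 121 and 109. The Chd9 site, in the gene of a chromatin remodeller, scored 105 in Day 4, 135 in Day 8 and 449 in Day 12 and had no other-list summit within 6997 bp. The Sec11a site, 15 bp from the start of a signal peptidase subunit gene, scored 59.4, 78.4 and 398. It had summits of all 3 non-calling lists nearby, at 106 bp in Day 12- 4, 108 bp in Day 12- 8 and 135 bp in Day 0. The Chek2 site scored 166, 114 and 448, with other-list summits at 342 and 358 bp.

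At the level of genes, 4621 of 21883 protein-coding genes, or 21.1%, had a member in the body or within 10 kb. Long genes had one more often, from 10.9% of genes up to 5 kb to 29.0% of those over 50 kb. More than 1 member was found at 1248 genes, and 41 genes had 5 or more. Of the genes with a member, 57.2% had some other site in Day 12- 4 and 81.6% one in Day 12- 8, while 49.7% had no site of any kind in Day 0. At 534 genes, 11.6%, no site of any kind was called in these 3 lists. The same shares over all genes were not computed. Genes with a member were longer, with a median of 25103 bp against 17170 bp for all genes, and the lists differ in length. Nothing particular to members is therefore read from these shares.

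**Figure D5:**
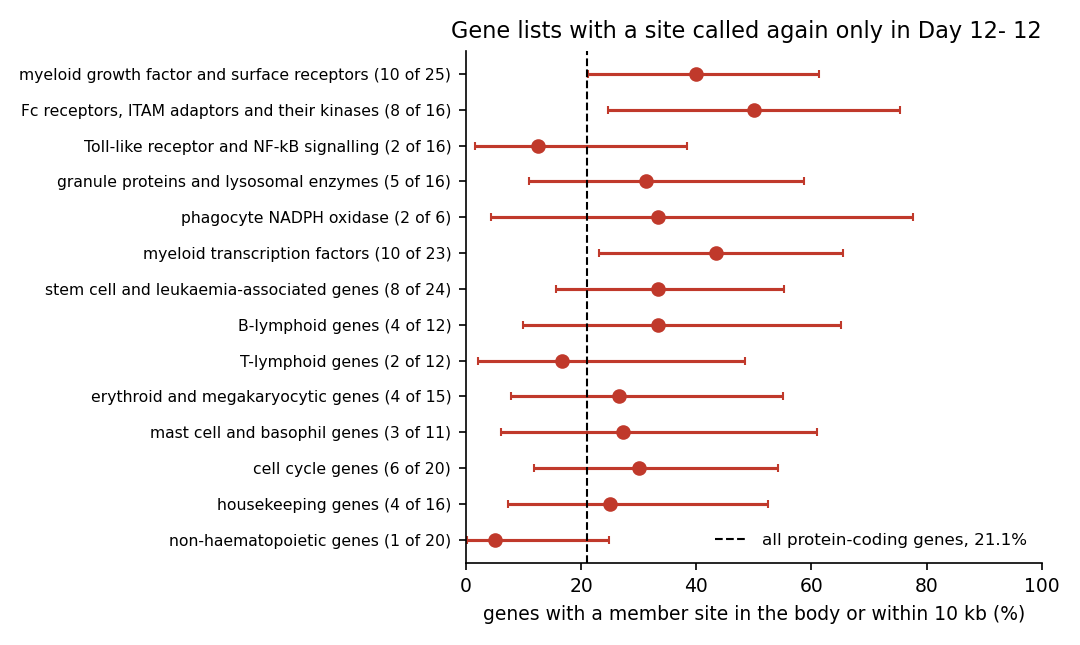
Share of the genes of each of 14 lists with a member in the body or within 10 kb (%), with exact 95% intervals and the 21.1% of all protein-coding genes as a dashed line. The highest share is that of Fc receptors, ITAM adaptors and their kinases (8 of 16) and the lowest that of non-haematopoietic genes (1 of 20).

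In the 14 gene lists, which held 232 genes, 69 genes had a member, or 29.7%. Shares above the 21.1% of all genes were found in 11 of the 14 lists, those of B-lymphoid, erythroid and housekeeping genes among them. A member was found at 10 of 25 myeloid receptors (interval 21.1 to 61.3%), 8 of 16 Fc receptors, ITAM adaptors and their kinases (24.7 to 75.3%) and 10 of 23 myeloid transcription factors (23.2 to 65.5%). Toll-like receptor and NF-kB genes had 2 of 16, granule and lysosomal genes 5 of 16 and NADPH oxidase genes 2 of 6. Shares in other lists were 8 of 24 for stem cell and leukaemia-associated genes, 4 of 12 for B-lymphoid, 2 of 12 for T-lymphoid, 4 of 15 for erythroid and megakaryocytic and 3 of 11 for mast cell and basophil genes. They were 6 of 20 for cell cycle genes, 4 of 16 for housekeeping genes and 1 of 20 for non-haematopoietic genes. The interval of the receptor list reached down to that background, and those of the other 11 lists included it. Gene length differs between lists, and nothing particular to a list is read from these counts.

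Among receptors, Csf1r, the receptor of macrophage colony-stimulating factor and a known PU.1 target, had 3 members. The highest, in the gene body but within 1 kb of its end, scored 118 in Day 4, 25.4 in Day 8, 307 in Day 12 and 6.20 in Day 12- 12. Csf3r, the receptor of granulocyte colony-stimulating factor, had 2, of which the one in the body scored 9.02, 6.04, 94.3 and 17.4. The 2 genes differ in their order of scores, and in Day 12- 12 the Csf1r site lay below that list's median of 6.34. Itgal, the alpha chain of the integrin LFA-1, had a site in its body, within 1 kb of its end, with 165, 57.9, 137 and 21.1. Its partner Itgb2 had 1 member, 8051 bp from the gene and nearer to Fam207a, with 63.5, 23.2, 143 and 24.6. In Cd300lf, an inhibitory receptor of myeloid cells, the member scored 205, 84.8, 90.4 and 8.04.

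Tyrobp encodes DAP12, the adaptor that couples many myeloid receptors to kinases. Its single member, on chromosome 7 at 30413815, lay just inside the gene body, whose edge is at 30413782. It scored 74.4 in Day 4, 39.3 in Day 8, 406 in Day 12 and 18.8 in Day 12- 12. No other-list summit lay within 5864 bp of it. Syk, the kinase recruited by such adaptors, had a member with 127, 61.6, 168 and 30.2 that had a Day 12- 4 summit 112 bp away. Plcg2, the phospholipase downstream of Syk, had 5 members in its body, the most in this list. Their Day 12 scores ran from 13.9 to 295, and the highest also scored 39.2 in Day 4, 29.8 in Day 8 and 44.8 in Day 12- 12. Ptpn6, the phosphatase SHP-1, had 3 members in its body, with Day 12 scores of 16.6, 30.7 and 104.

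Tlr2, a receptor of bacterial lipoproteins, had a member 7810 bp away. It scored 130 in Day 4, 94.7 in Day 8, 12.8 in Day 12 and 14.6 in Day 12- 12. Within these lists it stood at percentiles 94.6, 91.9, 65.6 and 91.0, so it ranked lowest in the Day 12 list. Nfkb1 had one in its body with 51.6, 24.6, 67.0 and 4.91. The granule protease genes Prtn3 and Elane are neighbours and share 3 members. The promoter site of Prtn3 scored 47.6, 34.2, 169 and 25.8, and those at 1704 and 2284 bp from the gene scored 66.4 and 9.15 in Day 12. Ctsd, a lysosomal protease, had a member with 23.7, 15.1, 22.6 and 17.8, at percentiles 70.0, 51.5, 77.0 and 93.7 of the same lists. Rac2, a GTPase of the phagocyte oxidase, had one in its body with 62.1, 65.8, 167 and 54.5, and Ncf4 one 1064 bp away with 7.15, 16.5, 40.4 and 11.0.

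Transcription factor genes with members included Spi1, named here after its values were seen because it encodes PU.1. Its member, in the gene body on chromosome 2 at 91089272, scored 50.2 in Day 4, 29.6 in Day 8, 87.1 in Day 12 and 24.2 in Day 12- 12, and the nearest summit of another list was 4486 bp away. The site on chromosome 8 at 84979896, 1148 bp upstream of Junb, an AP-1 subunit, scored 37.3, 40.5, 383 and 49.3. Jun had a member in its body with 22.0, 47.1, 231 and 35.8, with Day 12- 8 and Day 0 summits 201 and 235 bp away. Relb, an NF-kB subunit of myeloid and dendritic cells, had one with 53.3, 22.6, 232 and 20.5. In these 3 genes the Day 12 score was the highest of the 4 list scores. That holds for 3551 members (59.8%), while 1922 (32.4%) had their highest score in Day 4. Scores of different lists are not on a common scale, so these counts do not show when binding was highest. By percentile within each list, the median member stood highest in Day 12- 12, at 89.1, against 85.4 in Day 12.

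Of the stem cell and leukaemia-associated genes, Fli1, an ETS factor gene, had a member with 78.1 in Day 4, 56.2 in Day 8, 215 in Day 12 and 40.1 in Day 12- 12 and a Day 12- 4 summit 133 bp away. Asxl1, a chromatin regulator mutated in leukaemia, had one 187 bp upstream of its start with 18.1, 9.81, 98.7 and 15.2. Etv6, another ETS factor gene, had 3 in its body, the highest with 47.5, 33.8, 88.7 and 8.04. For cell cycle genes the highest member was at E2f1 (chromosome 2, 154569175), 251 bp downstream of the start, with 161, 148, 464 and 105. It had a Day 12- 8 summit 143 bp and a Day 0 summit 209 bp away, and thus sits close to calls of the untreated cells. Ccnd3, which encodes cyclin D3, had 3 members, the highest with 39.2, 37.4, 256 and 39.5.

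Genes of other lineages also had members. Blnk, a B-cell adaptor, had one in its body with 117 in Day 4, 28.5 in Day 8, 97.4 in Day 12 and 7.12 in Day 12- 12. Cd3e, of the T-cell receptor complex, had one 371 bp away with 8.36, 3.94, 81.8 and 19.8, and this was the only Day 12 site of that gene. Zfpm1, a cofactor of GATA factors, had 4 in its body, whose Day 12 scores ran from 65.3 to 182. Il4 and Hdc had members 102 and 30 bp upstream of an annotated start, though still inside the gene body. Their Day 12 scores were 37.7 and 13.5 and their Day 4 scores 98.9 and 36.5. Both had their highest score in the Day 4 list, but by percentile the Hdc site ranked higher in Day 12- 12 (89.1) than in Day 4 (79.3). Among housekeeping genes Tbp had a promoter member with 12.3, 19.1, 180 and 17.4, and among non-haematopoietic genes Mbp, which encodes myelin basic protein, had 4, with Day 12 scores from 46.6 to 190.

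The genes with most members were long ones. Gse1, over 353 kb, had 10 members among 174 Day 12 sites, and their Day 12 scores ran from 18.6 to 307. Zmiz1, a transcriptional coregulator gene, had 9 among 54 Day 12 sites and Cdh23 had 9 among 105. Anks1 and Dnah2 had 8 each, and Ubash3b, which encodes a regulator of receptor tyrosine kinase and Syk signalling, had 7 among 16 Day 12 sites. Per 100 kb of gene and flanks this was 2.68 members at Gse1, 3.93 at Zmiz1, 2.18 at Cdh23, 4.61 at Anks1, 5.39 at Dnah2 and 4.10 at Ubash3b. Some of the members counted at Cdh23 and Dnah2 also lie at a neighbouring gene, Vsir and Kdm6b. Over the whole genome there were 5938 members beside 86271 summits in the Day 12 list. No gene was tested against this background, and nothing particular to these genes is read from the counts.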

How the data were processed

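PU.1 ChIP-seq was deposited as 7 lists of peak summits, made with MACS2 on mm10 per the submitters' processing notes. The deposited scores were taken as the authors' −log10 q-values, since the lowest score of all lists corresponds to a q-value of 0.05. The aligner, MACS2 version, control, filters and depth, and any pooling of libraries, are not given in the sources used here. Summits were joined by single linkage at 100 bp and classed by the lists that called them, after checking the steps on simulated data. Positions were converted to count from 1. The 21883 protein-coding genes on placed chromosomes came from a RefSeq table of GRCm38.p6, without strand or exons, so exonic and intronic positions were not assigned. Starts and promoter sequences came from a RefSeq promoter table of the same assembly. No genome sequence was used, so motifs were searched only in promoter windows, which held the Day 12 summit of 374 members. Matching was by symbol, and all 232 list genes were matched.

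With 1 library per time point 0 tests were run. Intervals of shares are Clopper-Pearson (exact, 95%) and reflect counting error alone. Named sites were the 8 members highest in Day 12 and in Day 12- 12, up to 3 genes of each list by Day 12 score, the 6 genes with most members, and 3 sites on either side of the joining limit. Csf3r, Cd300lf, Ptpn6, Spi1, Narf and Trex1 were added after their values were seen. The members and lists were chosen with earlier results of these data known. The alternatives were other linkage distances, score minimums, equal list lengths, gene windows and leaving out libraries. Python 3.11.15, numpy 2.4.6, pandas 2.3.3, scipy 1.17.1 and matplotlib 3.10.9 were used.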

Additional observations from a re-analysis of the deposited data

How the results depend on the processing

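The number of selected sites stayed within 1.5 times of 5938 under 9 of 13 alternatives. It was 3762 with a score of at least 10 in every list, 2413 with at least 20, 388 with each list reduced to the length of the shortest (8043 summits), and 8912 without the library titled Day 12- 4, which of the 3 libraries left out in turn changed the count most. These settings also change which sites are selected: 2647 of the 3762, 925 of the 2413, 337 of the 388 and 5938 of the 8912 sites were members, so shares under them describe other sets of sites. A count within 1.5 times can hide such a change. Linkage at 50 bp gave 4005 sites that held 3669 (61.8%) of the members, and at 500 bp 5483 of 7675 sites were members. Without the library titled Day 12- 8 there were 6211 sites, and without the untreated library 5947. The gene-end share of 15.7% became 18.1% with linkage at 50 bp, 14.1% at 200 bp, 19.5% and 23.9% with score minimums of 10 and 20, 18.8% with lists of equal length and 12.5% after leaving out members with a summit of another list within 500 bp. By construction it was 11.0% within 500 bp and 22.0% within 2 kb of a gene end. The share in gene bodies, 60.1%, became 62.7% with a minimum of 20, 65.2% with equal lengths and 58.7% without the library titled Day 12- 4. Genes with a member numbered 8727 with a window of 50 kb. The share of promoter windows with GAGGAAGT was 7.75% when the motif had to lie within 50 bp of the Day 12 summit. With the motif anywhere in the window, it was 10.3% for the 369 members whose Day 12- 12 summit lay in one. A result added after seeing the data was the difference in gene-end share between sites called in all 3 knockdown-titled lists and members. It was 47.3 percentage points, between 45.8 and 49.6 in 5 settings, and 43.2 with lists of equal length. For other shifts the cause was not tested. Depth was unknown, and with 1 library per time point the precision between cultures is unknown too.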

Other observations

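Annotated microRNA hairpins were also set beside the members. Of 1005 RefSeq hairpins, 144 (14.3%) had a member within 10 kb, beside 21.1% of protein-coding genes with one in the body or within 10 kb. Clustered hairpins can share a member, as Mir23a, Mir24-2 and Mir27a do, and nothing particular to hairpins is read from this count. The nearest hairpin was Mir3569, 43 bp from a member that scored 13.4 in Day 4, 3.68 in Day 8, 115 in Day 12 and 20.2 in Day 12- 12. Mir7048 lay 95 bp from one that scored 171, 134, 298 and 16.7 in the same lists. These scores are the authors' −log10 q-values within each list, and the hairpins were named after their distances were seen.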
